A study of Ovis aries with 36 samples.

Results

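The genes described here make cholesterol and fatty acids or regulate their making, in cultured sheep ruminal epithelial cells. They were chosen by symbol, as 35 named genes of the mevalonate and sterol steps, of fatty acid synthesis and desaturation, and of the sterol regulatory element binding protein (SREBP) system. Of these, 34 were found in the count table, among its 35223 genes, and CYP51A1 was not analysed here. Ruminal epithelium lines the forestomach and takes up the volatile fatty acids (VFAs) that rumen microbes release. To synchronise their clocks, all cells were first held without serum and exposed for 2 h to the glucocorticoid dexamethasone at 100 nM, and they were then given 1 of 2 VFA media at pH 7.2. The Grain medium, named for a grain diet, held 71.1 mM acetate, 20.1 mM propionate, 16.0 mM butyrate, 5.3 mM isovalerate, 1.7 mM valerate and 1.1 mM isobutyrate, with a stated total of 115.78 mM. In the Hay medium these were 60.8, 14.6, 9.2, 3.0, 1.2 and 1.0 mM, with a stated total of 89.79 mM. Since acetate, propionate and butyrate were added as sodium salts, sodium differed as well, and no VFA-free cells were analysed here. Cells were harvested every 4 h at 6 time points, labelled T0 (24 h) to T20 (44 h), with 3 libraries per medium and time point and 36 libraries in all. The study's title asks how VFA concentration affects the circadian rhythm of gene expression.

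Cholesterol is built from acetyl-CoA through mevalonate, the isoprenoid diphosphates, squalene and lanosterol. Fatty acids are built from the same acetyl-CoA by way of malonyl-CoA, and are then elongated and desaturated. The SREBP transcription factors drive the genes of both pathways. They are carried from the endoplasmic reticulum (ER) by SCAP for cleavage when membrane sterol is low, and are held back there by the INSIG proteins when sterol is ample. Acetate is a main source of carbon for lipid synthesis in ruminants.

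Library totals ran from 52.4 to 68.1 M counts, and 22488 genes passed the low-count filter, all 34 lipid genes among them (112 counts in the lowest library of any of them). Levels are given as CPM, the count relative to library size in the usual scaling, after TMM adjustment of that size, and were not compared between genes, since the table holds no transcript lengths. The labels leave unsaid if a group's 3 libraries were grown as separate cultures. The p-values therefore reflect no more than the variation among these libraries, which may be technical. Within groups, a chi-square per degree of freedom over genes set libraries apart to different degrees. Hay T16 replicate 3 stood at 25.7 and 19.1 from the other 2, which stood at 6.05 from each other, and Grain T4 replicate 2 at 16.7 and 19.8, against 6.92. Hay T16 replicate 3 was the highest of its group for 11 of 17 cholesterol enzymes. Other libraries came close, with 10 of 17 each for Grain T0 replicate 1 and Grain T4 replicate 3. Without Hay T16 replicate 3, the medium difference depended on time for 24 lipid genes (23 with it, 32.6% of all genes). In Hay 28 then differed between time points (29 with it, 35.2%) and 22 had a 24 h component (23 with it, 20.7%). Without Grain T4 replicate 2, 17 had a 24 h component in Grain (21 with it, 31.8%), where ACAT2, MVD, FDFT1 and INSIG1 did not pass, and 9 had a different one between the media (11 with it, 11.3%). Marker genes of several cell types, keratinocytes and simple epithelium among them, were summed as CPM, as the median of 18 libraries in each medium. They stood at 24380 in Grain and 19940 in Hay for 8 fibroblast genes, at 681 and 539 for 6 basal keratinocyte genes and at 166 and 270 for 5 simple-epithelium genes. For 5 smooth muscle genes they were 556 and 420, for 7 adipocyte genes 37.5 and 67.0, for 4 of 6 differentiated-keratinocyte genes 10.9 and 19.8, for 3 endothelial genes 4.94 and 3.67 and for 4 leukocyte genes 1.27 and 2.30. No marker that was measured was at 0 in every library. Of the 4 differentiated-keratinocyte genes, however, only 2 passed the low-count filter. KRT13 made up most of their sum, with T0 means of 11.3 CPM in Grain and 19.0 CPM in Hay. Single genes could go against the sum of their list, while others went with it. In the T0 means of adipocyte genes, FABP4 had 12.9 CPM in Grain and 46.4 CPM in Hay, but LPL 20.1 and 13.7. Against their sums, ACTA2 of smooth muscle had 122 and 159, and EPCAM of simple epithelium 30.4 and 24.0. So did TP63 of basal keratinocytes, with 5.35 and 9.29, and COL1A1 of fibroblasts, with 2015 and 3361. The sums thus do not stand for each of their genes. The part of these shifts in the results below was not tested, and in bulk RNA fewer cells of a type and less RNA per cell cannot be told apart. Reads of 13 of the lipid genes could pass to or from another annotated gene, because they overlap one and the library kit keeps no strand. These are ACAT2, PMVK, IDI1, FDPS, FDFT1, NSDHL, EBP, SREBF2, SCAP, ACACA, ACACB, FADS1 and ELOVL6, whose values are uncertain for that reason.

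Averaged over the 6 time points, 33 of the 34 lipid genes differed between the media, 23 higher in Grain and 10 lower. The background was high: 81.8% of all genes tested passed the same test (edgeR quasi-likelihood, Benjamini-Hochberg adjusted p under 0.05), 37.9% as higher and 43.9% as lower. The median log2 difference of the 34 genes was 0.28, against -0.07 over all genes. Of the lipid genes 97.1% were called, so most of that share is also seen in genes at large, and the genes lay more often on the higher side. The cholesterol enzymes rose in 12 of 17 cases and fell in 5. Among the regulators 5 of 6 rose and 1 fell, among the fatty acid synthesis genes 2 of 5 rose and 2 fell, and among the desaturases and elongases 3 of 5 rose and 2 fell. The lipin gene LPIN1 rose. With library totals in place of TMM, an alternative chosen after seeing the data, the counts were 20 higher and 11 lower (31.4% and 51% of all genes), the median of all genes shifted by -0.12, and SCAP and DHCR7 turned to -0.04 and -0.02.

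**Figure D1:**
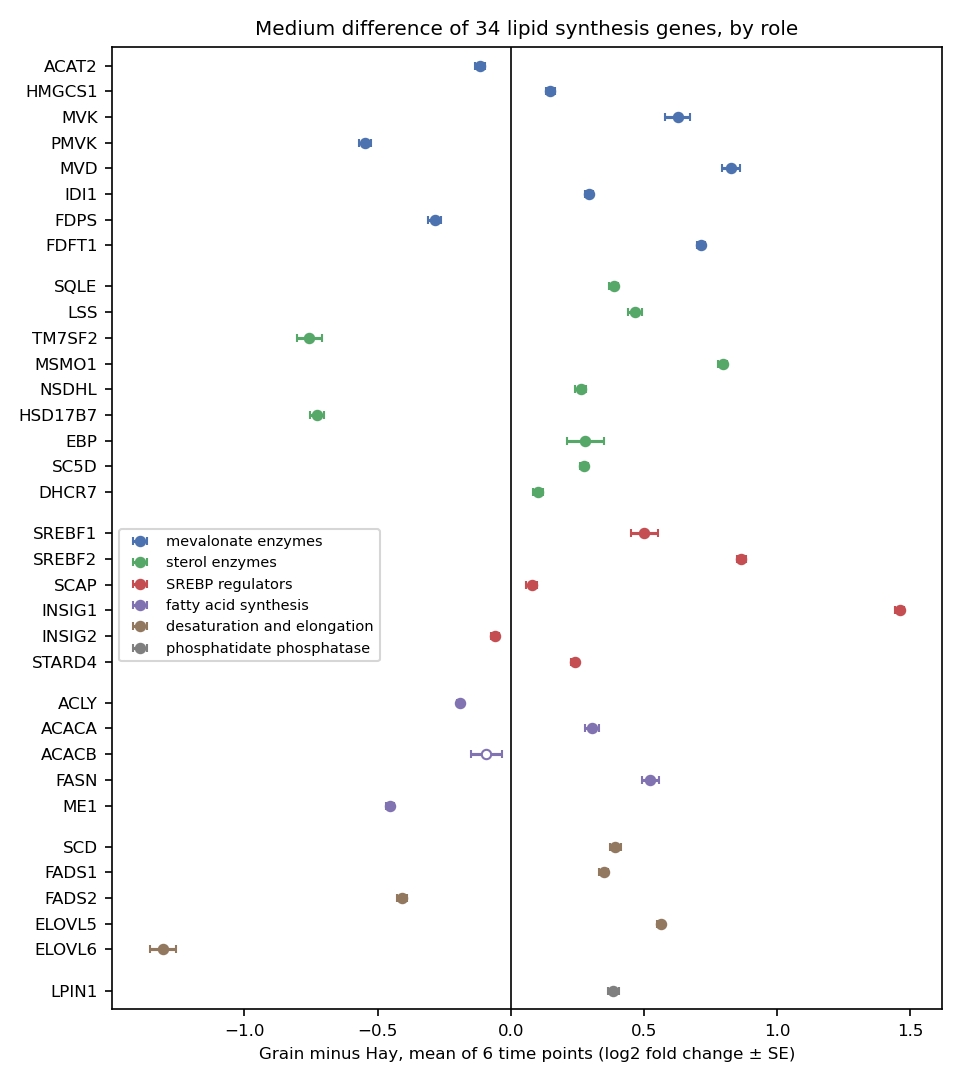
Grain minus Hay difference of each of the 34 genes as the mean of 6 time points (log2 fold change ± SE from the edgeR fit, 18 libraries per medium), grouped and coloured by role; filled points passed an adjusted p of 0.05. INSIG1 stands highest at 1.46 and ELOVL6 lowest at -1.31, and ACACB, the open point, is the 1 gene that did not pass.

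The regulators held the widest differences on the higher side. INSIG1, which retains the SCAP and SREBP complex in the ER and is itself an SREBP target, had 97.1, 119 and 137 CPM in Grain and 28.9, 40.0 and 75.0 CPM in Hay (lowest, median and highest of 18 libraries, here and below). All Grain libraries stood above all Hay libraries. The mean log2 difference was 1.46 (SE 0.017, adjusted p = 9.92e-40), or 2.75-fold. SREBF2, the SREBP mainly tied to cholesterol genes, had 80.8, 89.8 and 106 CPM in Grain and 36.9, 49.9 and 64.8 CPM in Hay, again with no overlap. Its rise was 0.87 (SE 0.016, adjusted p = 7.87e-34). SREBF1, which encodes the SREBP forms tied mainly to fatty acid genes, had 4.44, 6.20 and 6.80 CPM in Grain and 3.35, 4.31 and 5.55 CPM in Hay. Its libraries overlapped between the media, and it rose by 0.50 (SE 0.049, adjusted p = 1.18e-11). STARD4, a carrier of cholesterol between membranes, rose by 0.24 (adjusted p = 1.03e-19). SCAP, the escort of the SREBPs, rose by 0.08 (SE 0.021, adjusted p = 0.000883), with all Grain libraries above Hay at 2 of 6 time points. INSIG2, the second retention protein, fell by 0.06 (SE 0.014, adjusted p = 0.000254), with medians of 84.6 CPM in Grain and 90.0 CPM in Hay. That fall was near the median of all genes (-0.07). In group means INSIG2 was higher in Grain at T4 (92.9 CPM against 91.6 CPM in Hay) and at T8 (95.5 against 93.6).

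In the mevalonate steps, the genes for neighbouring enzymes went different ways. MVK and MVD, the kinase that starts and the decarboxylase that ends the conversion of mevalonate to isopentenyl diphosphate, both rose. MVK had 4.96, 6.56 and 8.42 CPM in Grain and 3.29, 4.00 and 6.01 CPM in Hay, and rose by 0.63 (SE 0.047, adjusted p = 6.55e-15). MVD had 13.9, 17.4 and 24.6 CPM in Grain and 7.65, 9.49 and 14.0 CPM in Hay, and rose by 0.83 (SE 0.033, adjusted p = 4.87e-23). Over all 18 libraries both overlapped between the media, and within each time point neither did. PMVK, the kinase between them, fell by 0.55 (SE 0.024, adjusted p = 7.65e-22), with 16.6, 20.6 and 26.1 CPM in Grain and 27.3, 30.3 and 34.0 CPM in Hay, which do not overlap. FDPS, the synthase of farnesyl diphosphate, fell by 0.29 (adjusted p = 6.45e-13). FDFT1, squalene synthase and the first step committed to sterols, had 207, 231 and 264 CPM in Grain and 121, 142 and 170 CPM in Hay. It rose by 0.71 (SE 0.015, adjusted p = 9.26e-32) with no overlap. The isomerase gene IDI1 rose by 0.29 (adjusted p = 9.05e-20) and HMGCS1, the synthase of HMG-CoA, by 0.15 (adjusted p = 2.23e-10). ACAT2, the cytosolic thiolase that joins 2 acetyl-CoA, fell by 0.12 (adjusted p = 1.62e-07).

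Most genes for the sterol steps were higher in Grain. MSMO1, an oxidase that removes methyl groups from the sterol ring, had 221, 279 and 346 CPM in Grain and 117, 149 and 254 CPM in Hay. It rose by 0.80 (SE 0.017, adjusted p = 3.82e-32), with all Grain libraries above Hay at each time point. LSS, which closes the ring to lanosterol, rose by 0.47 and SQLE, the squalene epoxidase before it, by 0.39. Smaller rises were those of EBP, a sterol isomerase (0.28), SC5D, a sterol desaturase (0.28), NSDHL, a dehydrogenase of the demethylation complex (0.26), and DHCR7, a reductase of the last steps (0.10). TM7SF2, a sterol reductase, fell by 0.76 (SE 0.046, adjusted p = 1.73e-17), with 4.76, 7.03 and 8.37 CPM in Grain and 8.75, 11.9 and 13.9 CPM in Hay. HSD17B7, the reductase that completes the demethylation, fell by 0.73 (SE 0.026, adjusted p = 1.74e-24), with 15.1, 21.5 and 26.0 CPM in Grain and 30.5, 34.7 and 38.4 CPM in Hay. Neither of these falls had any overlap between the media.

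The fatty acid synthesis genes went different ways, without most of them being higher in Grain. FASN, fatty acid synthase, rose by 0.52 (SE 0.032, adjusted p = 2.63e-17), with 22.1, 27.8 and 33.8 CPM in Grain and 12.2, 18.1 and 30.8 CPM in Hay. ACACA, the cytosolic acetyl-CoA carboxylase, rose by 0.30 (adjusted p = 1.48e-13). ACACB, its relative at the mitochondrial surface, differed by -0.09 (SE 0.059, adjusted p = 0.153) and did not pass. ME1, a malic enzyme that supplies NADPH, fell by 0.45 (SE 0.015, adjusted p = 1.64e-25), with 79.5, 90.0 and 104 CPM in Grain and 105, 122 and 149 CPM in Hay. ACLY, which makes cytosolic acetyl-CoA from citrate, fell by 0.19 (adjusted p = 4.04e-17). ACLY and ME1 were below Hay in all Grain libraries at each of the 6 time points.

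Of the elongases and desaturases, closely related genes moved apart. ELOVL6, which lengthens saturated and monounsaturated acids made in the cell, had the deepest fall of the 34 genes. It had 2.69, 4.49 and 6.08 CPM in Grain and 8.98, 11.1 and 12.6 CPM in Hay, and fell by 1.31 (SE 0.049, adjusted p = 6.47e-24). ELOVL5, which lengthens polyunsaturated acids, rose by 0.56 (SE 0.014, adjusted p = 1.38e-29), from 291, 308 and 331 CPM in Hay to 375, 444 and 563 CPM in Grain. The media did not overlap for either elongase. The polyunsaturated-acid desaturase FADS1 rose by 0.35 (adjusted p = 1.93e-20), whereas FADS2, which acts earlier in the same pathway, fell by 0.41 (SE 0.019, adjusted p = 8.43e-21). FADS2 had 26.0, 31.0 and 33.9 CPM in Grain and 35.1, 39.9 and 46.5 CPM in Hay, without overlap. SCD, the desaturase that makes oleic acid from stearic acid, rose by 0.39 (adjusted p = 4.43e-20). LPIN1, a phosphatidate phosphatase of triglyceride synthesis, rose by 0.38 (adjusted p = 7.99e-19) with no overlap.

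At single time points the number of lipid genes that passed ranged from 28 to 32, on a background that is given here as higher and lower shares of all genes. At T0 31 passed, 22 higher and 9 lower (62.8% of all genes, 31.6% and 31.2%), at T4 32, 23 and 9 (57.8%, 29.9% and 27.9%), and at T8 30, 22 and 8 (56.8%, 29.5% and 27.2%). At T12 29 passed, 17 higher and 12 lower (64.3%, 30.7% and 33.6%), at T16 28, 19 and 9 (62.7%, 30.2% and 32.5%), and at T20 29, 21 and 8 (58.9%, 29.7% and 29.2%). T12 had the fewest higher and the most lower genes. With library totals in place of TMM, T12 had 12 higher and 17 lower genes (21.9% and 43.3% of all genes), T16 had 14 and 13 (23.8% and 40.1%), and T20 had 18 and 12 (24% and 34.8%). With all 3 Grain libraries above all 3 Hay libraries at all 6 time points stood 16 genes (20.8% of all genes), and 7 stood below at all 6 (18.5%). Groups of 3 that did not overlap at a single time point were common, with 67.8% of all genes at T0, 64.4% at T4, 64.1% at T8, 65.9% at T16 and 64.5% at T20, and a similar share at T12. The lipid genes below Hay at all 6 were PMVK, TM7SF2, HSD17B7, ACLY, ME1, FADS2 and ELOVL6.

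**Figure D2:**
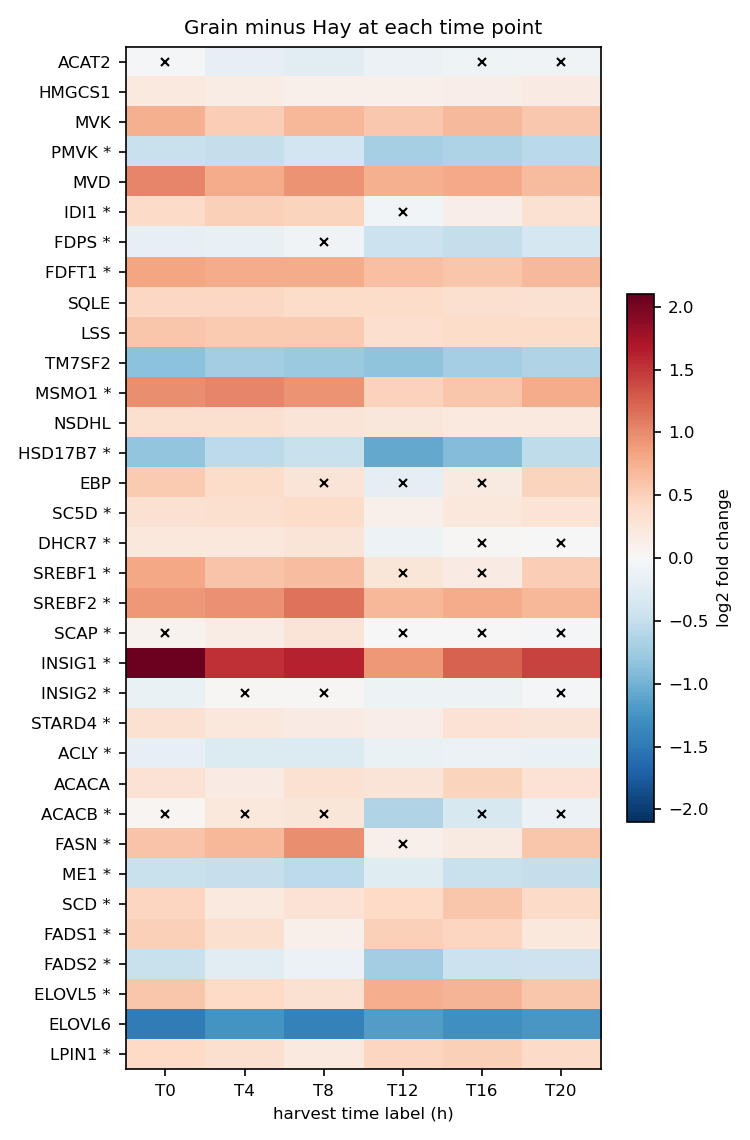
Grain minus Hay at each harvest time label for the 34 genes (colour, log2 fold change; 3 libraries per group); a cross marks an adjusted p of 0.05 or more and an asterisk a difference that depended on time. INSIG1 runs from 2.06 at T0 to 0.91 at T12, and IDI1 and FASN carry a cross at T12 alone and SREBF1 at T12 and T16.

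The size of the medium difference depended on the time of harvest for 23 of the 34 genes (F test of 5 contrasts, edgeR quasi-likelihood), against 32.6% of all genes. This held for all 6 regulators, 8 of 17 cholesterol enzymes, 4 of 5 fatty acid synthesis genes, 4 of 5 desaturases and elongases, and LPIN1. Of the 15 such genes with a higher mean in Grain, 7 had their smallest difference at T12 and 3 at T8. Of the 3507 genes of the whole table with a higher mean and a difference that depended on time, 33.8% were smallest at T12 and 43.1% at T8.

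INSIG1 had the smallest adjusted p of this test (5.82e-16). At T0 its levels were 129, 118 and 119 CPM in Grain and 30.0, 28.9 and 29.1 CPM in Hay. At T12 they were 127, 131 and 137 CPM in Grain and 75.0, 68.9 and 66.9 CPM in Hay. The Grain libraries were alike at both times, while the Hay libraries at T12 stood far above those at T0, and the difference went from 2.06 to 0.91. IDI1 (adjusted p = 6.07e-11) had 151, 148 and 138 CPM in Grain and 113, 110 and 109 CPM in Hay at T0, with all Grain libraries higher. At T12 it had 163, 160 and 169 CPM in Grain and 168, 178 and 170 CPM in Hay, which overlap. Its difference was 0.40 at T0 and -0.06 at T12 (adjusted p = 0.125).

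MSMO1 (adjusted p = 4.54e-10) had a difference of 1.02 at T4 and 0.48 at T12. ELOVL5 (adjusted p = 6.6e-09) ran the other way, with 0.32 at T8 and 0.77 at T12. Its Hay libraries were at 308, 301 and 314 CPM at T8 and 328, 331 and 314 CPM at T12, while its Grain libraries went from 392, 388 and 375 CPM to 563, 549 and 546 CPM. Among the other regulators, SREBF2 had its widest difference at T8 (1.14), and SREBF1 went from 0.81 at T0 (adjusted p = 3.5e-07) to 0.25 at T12 (adjusted p = 0.0646) and 0.18 at T16 (adjusted p = 0.206). FASN went from 0.98 at T8 to 0.10 at T12 (adjusted p = 0.266). FADS2, lower in Grain throughout, had -0.12 at T8 and -0.73 at T12, and HSD17B7 had -0.46 and -1.08. DHCR7 changed sides, from 0.27 at T8 (adjusted p = 7e-06) to -0.10 at T12 (adjusted p = 0.0493).

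**Figure D3:**
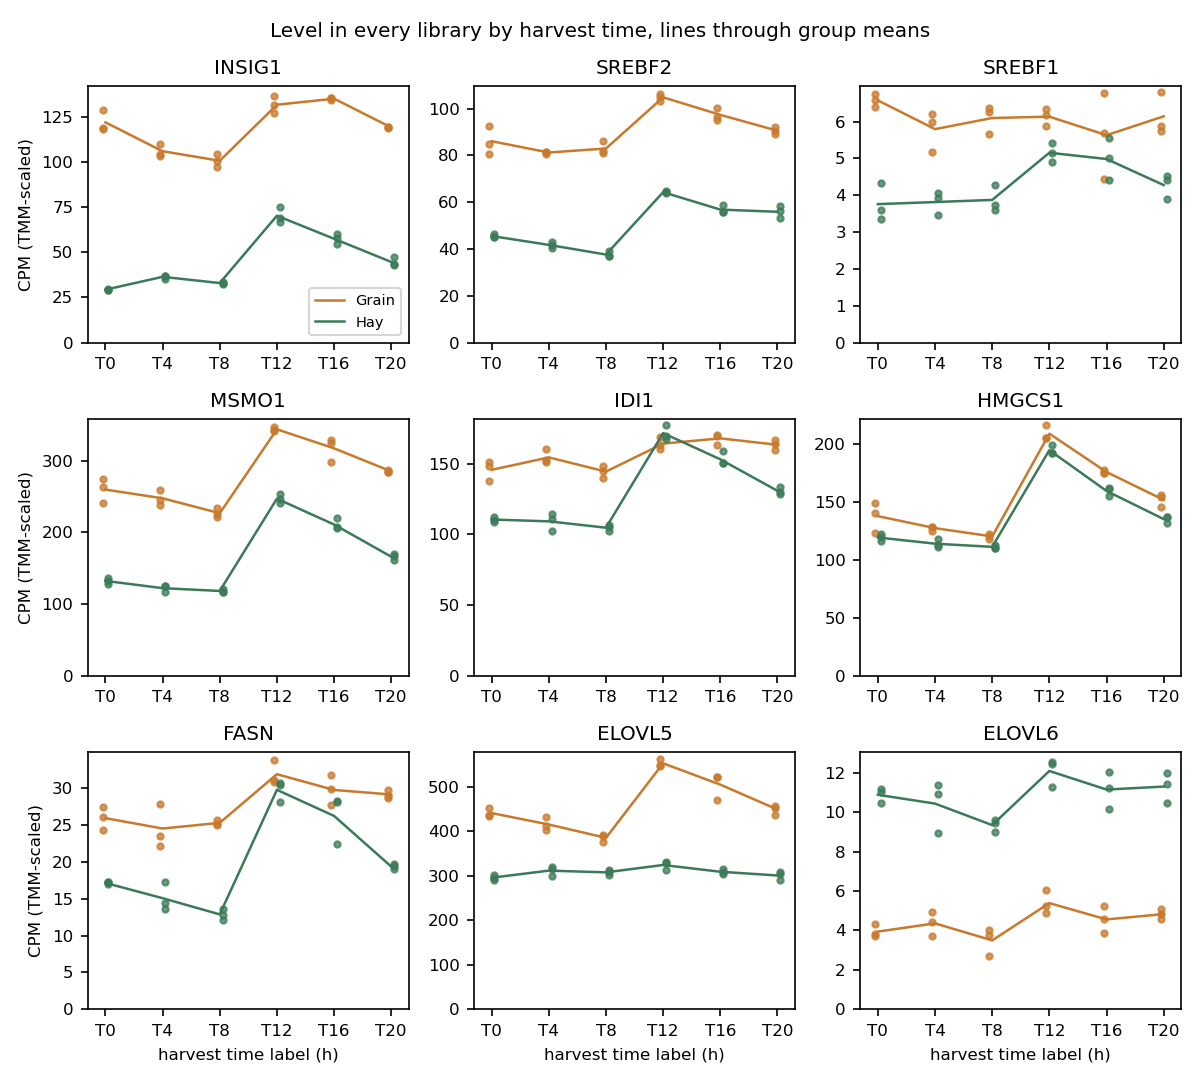
CPM (TMM-scaled) of 9 of the genes in each library against the harvest time label, with 3 points per medium and time point and lines through the group means; each vertical axis starts at 0. INSIG1, SREBF2, MSMO1 and HMGCS1 step up between T8 and T12 in both media, IDI1 and FASN come close in the media at T12, ELOVL5 steps up in Grain and ELOVL6 stays lower in Grain throughout.

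Within a medium, 31 of the 34 genes differed between time points in Grain (51.5% of all genes) and 29 in Hay (35.2%). In Grain SREBF1, SC5D and DHCR7 did not pass, and in Hay SCAP, INSIG2, HSD17B7, ACACB and ELOVL6 did not. In the plotted courses, many genes stood near or below their T0 level at T8 and higher at T12. Because this step was seen in the plotted courses, the comparison of T12 with T8 was chosen after seeing the data, and its result describes that pattern. In Hay 24 genes rose and 6 fell from T8 to T12 (36.1% of all genes passed, 19.6% higher and 16.4% lower), with a median of 0.39 against -0.04 over all genes. In Grain 23 rose and 8 fell (50.0% of all genes, 23.5% higher and 26.5% lower), with a median of 0.25 against -0.06.

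This step depends on the scaling in Grain. The TMM factors moved with it, from 1.04 to 1.05 at T8 down to 0.859 to 0.869 at T12 in Grain, and from 1.07 to 1.09 down to 0.982 to 1 in Hay. With library totals in place of TMM, the median of all genes shifted by -0.28 in Grain and -0.13 in Hay, and the lipid genes gave 10 rises and 13 falls in Grain (8.63% and 49.2% of all genes) and 20 and 7 in Hay (11.1% and 28.7%). IDI1, FDPS and FDFT1 then had -0.09, -0.06 and -0.01 in Grain. Marker sums moved over the same 4 h. The fibroblast sum went from 19230 to 20050 CPM at T8 to 31130 to 31630 at T12 in Grain and from 17520 to 18380 to 23490 to 24170 in Hay. The basal keratinocyte sum went from 439 to 477 to 989 to 1050 in Grain and from 470 to 498 to 664 to 690 in Hay, and the smooth muscle sum from 373 to 409 to 878 to 907 and from 197 to 212 to 918 to 957. The simple-epithelium sum went from 142 to 157 to 199 to 219 in Grain, with overlap in Hay, and the differentiated-keratinocyte sum from 8.02 to 10.8 to 11.8 to 14.3 in Grain, with overlap in Hay. Lower at T12 without overlap were the adipocyte sum (45.0 to 45.9 at T8 and 27.8 to 30.6 at T12 in Grain, 66.7 to 69.8 and 62.6 to 66.6 in Hay), the leukocyte sum (1.47 to 1.91 and 0.711 to 1.16 in Grain, 2.03 to 2.55 and 1.35 to 1.84 in Hay) and the endothelial sum (5.06 to 6.48 and 3.23 to 4.09 in Grain, 3.59 to 4.36 and 3.03 to 3.404 in Hay). These marker sums are TMM-scaled and were not recomputed with library totals, so their shifts depend on the scaling too. Their part in the step was not tested.

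By TMM the strongest steps in Hay were those of FASN, INSIG1, MSMO1 and EBP. FASN had 13.6, 12.8 and 12.2 CPM at T8 and 30.8, 30.5 and 28.1 CPM at T12 in Hay, a rise of 1.21 (SE 0.081, adjusted p = 6.42e-15). In Grain it had 25.8, 25.1 and 25.1 CPM and then 31.1, 33.8 and 30.9 CPM, a rise of 0.33 (adjusted p = 0.000443). In both media the libraries of T12 stood above those of T8. INSIG1 rose by 1.09 in Hay and 0.39 in Grain, MSMO1 by 1.06 and 0.60, SREBF2 by 0.77 and 0.34, and EBP by 1.01 and 0.56. HMGCS1 rose by 0.81 in Hay and 0.80 in Grain (difference -0.01, SE 0.056, adjusted p = 0.923), from 113, 110 and 111 to 193, 200 and 192 CPM in Hay and from 122, 120 and 118 to 205, 206 and 216 CPM in Grain. SQLE rose by 0.75 in both.

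The difference between the media in this step was tested directly and passed for 20 of the 34 genes, 5 with a positive and 15 with a negative signed log2 difference, taken as the change in Grain minus that in Hay (32.5% of all genes, 14.4% and 18.1%). With library totals the split was 3 positive and 22 negative (7.66% and 29.8% of all genes). The sign does not give the size of a step, since a gene that fell further in Grain is also negative. Among the negative genes, those that rose in both media and less in Grain included INSIG1, with a difference of -0.70 (adjusted p = 6.06e-12), FASN with -0.88 (adjusted p = 7.82e-08), IDI1 with -0.53 (adjusted p = 2.71e-10), MSMO1 with -0.46 (adjusted p = 4.34e-08) and SREBF2 with -0.43 (adjusted p = 6.73e-08). Of the positive genes, ACLY rose by 0.46 in Grain and 0.30 in Hay (difference 0.16). ELOVL5 (difference 0.45, adjusted p = 3.26e-09) and FADS1 (0.39) rose in Grain, by 0.52 and 0.32, and did not pass in Hay. ME1 fell in both media, by 0.17 in Grain and 0.46 in Hay (0.30), and LPIN1 fell by 0.20 in Hay and did not pass in Grain (0.25). The gene of the mitochondrial carboxylase, ACACB, with a negative difference, fell further in Grain, by 1.29 in Grain, from 4.12, 5.64 and 5.74 to 2.02, 2.26 and 2.06 CPM, and by 0.42 in Hay, from 4.54, 4.72 and 3.80 to 3.66, 2.63 and 3.5 CPM. PMVK and TM7SF2, both lower in Grain on average, fell from T8 to T12 in both media, by 0.48 and 0.49 in Grain and by 0.20 and 0.43 in Hay.

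**Figure D4:**
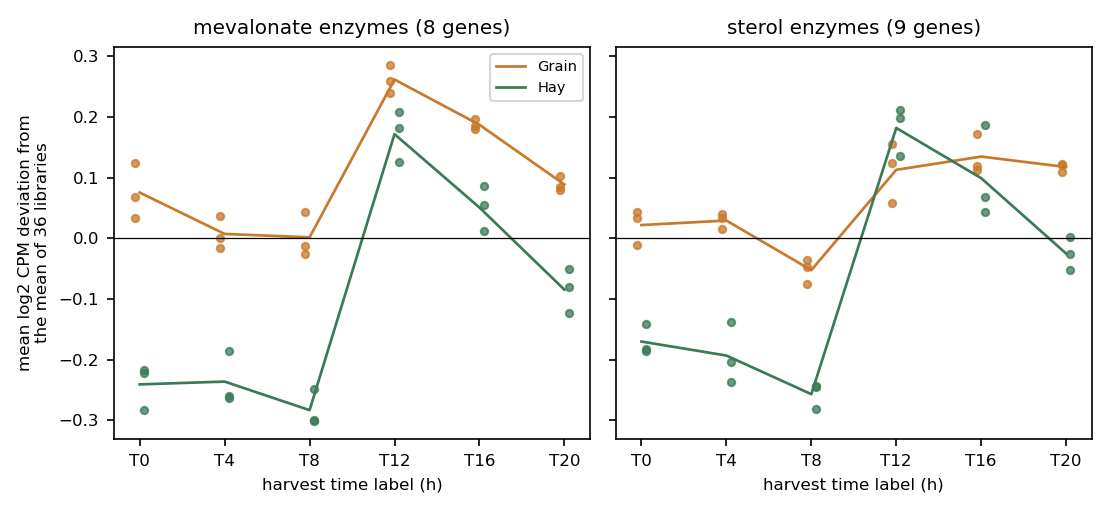
Mean log2 CPM deviation of the 8 mevalonate and 9 sterol enzyme genes from their mean over the 36 libraries, for each library against the harvest time label, with lines through the group means of 3 libraries. The sterol enzymes in Hay go from -0.26 at T8 to 0.18 at T12, beside 0.11 in Grain at T12, and both groups of genes are lower in Hay than in Grain at T0, T4 and T8.

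The 8 mevalonate genes, averaged as a log2 deviation from their mean over 36 libraries, stood at 0.08 ± 0.046 in Grain and -0.24 ± 0.036 in Hay at T0 (SD, n = 3). At T12 they stood at 0.26 ± 0.023 and 0.17 ± 0.042. For the 9 sterol genes the values were 0.02 ± 0.029 and -0.17 ± 0.024 at T0 and 0.11 ± 0.050 and 0.18 ± 0.041 at T12. The gap between the media was thus smaller in size at T12 than at T0 in both groups. For the sterol genes it also turned, with Hay above Grain at T12. These means are given without a test, by TMM alone and not with library totals. Between the first and the last harvest, 7 genes rose and 1 fell in Grain (9.04% of all genes passed, 5.04% higher and 4.00% lower), and 10 rose and 0 fell in Hay (3.64%, 2.82% and 0.814%). In Hay, library totals gave 8 rises and 0 falls (1.39% higher and 2.23% lower), and leaving out 1 library moved the 818 genes called in all to between 416 and 923, lowest without Hay T0 replicate 2. The rises in Hay were led by INSIG1 (0.61, adjusted p = 1.54e-11), from 30.0, 28.9 and 29.1 CPM at T0 to 47.3, 43.1 and 43.6 CPM at T20, followed by MSMO1 (0.33), SREBF2 (0.30) and FDFT1 (0.27). In Grain the rises were those of HSD17B7 (0.26), FADS2 (0.18), IDI1 (0.17), ACLY (0.15), HMGCS1 (0.14), MSMO1 (0.13) and FDFT1 (0.13), and FADS1 fell by 0.16. The rises in Grain numbered 3 without Grain T20 replicate 2 or replicate 3 and 4 without Grain T0 replicate 2, and FADS1 did not pass without Grain T0 replicate 1 or Grain T20 replicate 1.

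A cosine of fixed 24 h period was then fitted in each medium, with the limit that 1 cycle was sampled, so a daily rhythm and a single rise and fall cannot be told apart. It passed for 21 of the 34 genes in Grain (31.8% of all genes) and 23 in Hay (20.7%). In Hay the peak fell between T12 and T18 for 21 of those 23 (59.6% of all genes that passed in Hay), and in Grain for 15 of 21 (44.3%). These shares follow from the step described above and are no separate evidence of it.

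In Hay the smallest adjusted p were those of INSIG1, MSMO1, IDI1 and FDPS. INSIG1 had an amplitude of 0.56 (log2, SE 0.056, adjusted p = 4.94e-08) with a peak at T14.2 (SE 0.386 h), MSMO1 0.51 (SE 0.053, adjusted p = 9.84e-08) at T15, IDI1 0.34 (adjusted p = 1.05e-07) at T14.9 and FDPS 0.30 (adjusted p = 1.36e-06) at T15.6. In Grain they were ACLY, ELOVL5, HMGCS1 and PMVK. ACLY had an amplitude of 0.19 (SE 0.029, adjusted p = 4.31e-05) and a peak at T15.9, ELOVL5 0.19 (adjusted p = 8.7e-05) at T15.3 and HMGCS1 0.32 (adjusted p = 0.000108) at T15. PMVK peaked at T3.6 in Grain, with an amplitude of 0.21 (adjusted p = 0.000143), as did ACACB at T3.07 with 0.48 (adjusted p = 0.000489). The early peaks of these genes and of SCAP, INSIG2 and ME1 (T5.77 to T5.79 in Grain) lie opposite to the late peaks of the others. EBP peaked just outside the late window, at T18.7 in Grain.

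The 24 h component differed between the media for 11 genes (11.3% of all genes): INSIG1 (adjusted p = 0.000831), IDI1 (0.00306), FDPS (0.0144), SCAP (0.0162), SREBF1 (0.0198), ELOVL5 (0.0204), DHCR7 (0.028), MSMO1 (0.0306), FASN (0.0407), FADS2 (0.0434) and SC5D (0.044). The count was 6 without Grain T4 replicate 1, and 7 without Grain T4 replicate 3, Grain T16 replicate 3, Hay T12 replicate 2 or Hay T12 replicate 3. It was 7 with DESeq2 size factors and 6 with no low-count filter. IDI1 had an amplitude of 0.10 in Grain and 0.34 in Hay, FDPS 0.09 and 0.30, FASN 0.18 and 0.50, and SREBF1 0.04 and 0.25. For these genes the component in Grain did not pass (adjusted p = 0.0779, 0.154, 0.0758 and 0.795). ELOVL5 was the reverse, with 0.19 in Grain and 0.05 in Hay, where it did not pass (adjusted p = 0.511). For SCAP the amplitudes were 0.08 and 0.06, and the peaks were at T5.79 in Grain and T18.2 in Hay. In Hay the component of SCAP did not pass (adjusted p = 0.176), so its peak there is uncertain. As a description, the amplitude was larger in Hay for 22 of the 34 genes and for 15 of the 17 cholesterol enzymes, against 41.2% of all genes.

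**Figure D5:**
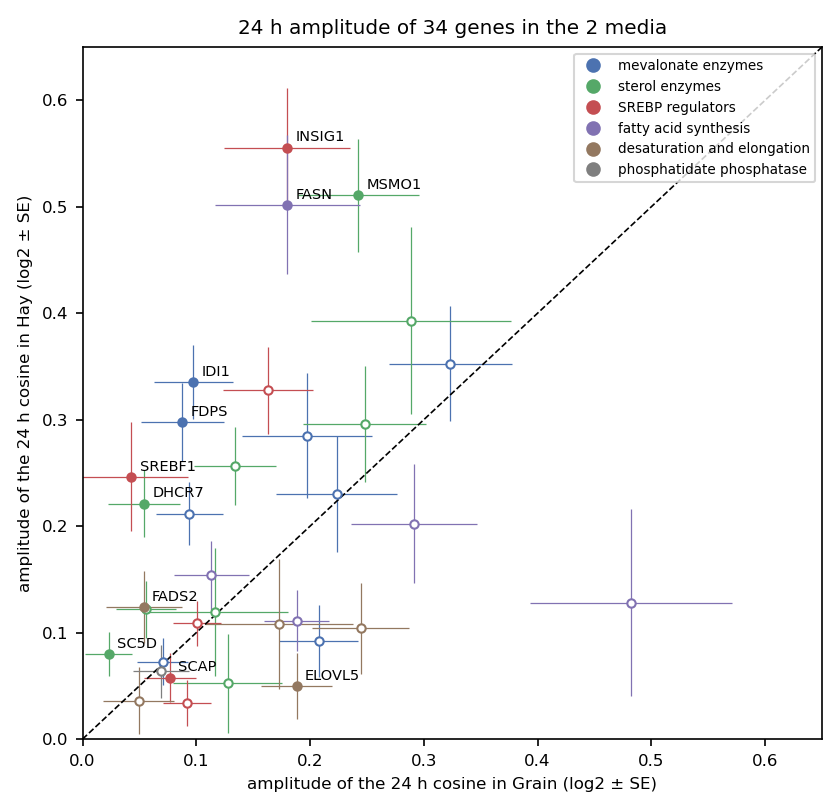
Amplitude of the 24 h cosine (log2 ± SE) in Hay against that in Grain for the 34 genes, 18 libraries per medium, coloured by role; filled and named points differed between the media and the dashed line marks equal amplitudes. INSIG1, MSMO1, FASN, IDI1 and FDPS lie above the line, with 0.56 against 0.18 for INSIG1, and ELOVL5 lies below it.

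Other genes of the same pathways, grouped by role, also differed between the media, with 85.7% to 93.8% of each group called on the background of 81.8%. Of 16 genes for SREBP processing and the turnover of sterol-regulated proteins, 12 rose, 3 fell and 1 did not pass (median 0.15). AUP1, a lipid droplet protein that recruits ubiquitin enzymes, rose by 0.84, SPRING1, a cofactor of the protease that cleaves SREBPs, by 0.67, and the sterol-binding TMEM97 by 0.58. ERLIN2, an ER protein of the degradation of INSIG clients, fell by 0.63 (adjusted p = 2e-32). MBTPS1 and MBTPS2, the proteases that cleave SREBPs, were picked for mention after their values were seen, and fell by 0.32 and 0.15.

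Of 13 genes for liver X receptor signalling and sterol handling, 7 rose, 5 fell and 1 did not pass (median 0.08). CH25H, which makes an oxysterol that holds SREBPs in the ER, fell by 1.44 (adjusted p = 4.7e-35), and LIPA, the lysosomal acid lipase, by 0.90. OSBP, a sterol transfer protein, and MYLIP, a ubiquitin ligase of lipoprotein receptors, rose by 0.67 and 0.65. Of 13 genes for isoprenoid branches, 7 rose, 5 fell and 1 did not pass (median 0.18). GGPS1, the synthase of geranylgeranyl diphosphate, rose by 0.97 (adjusted p = 8.59e-37) and DHDDS, of dolichol synthesis, by 0.74, whereas COQ2, of ubiquinone synthesis, and ZMPSTE24, a protease of prenylated proteins, fell by 0.85 and 0.90.

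Acyl-CoA and NADPH supply gave 7 rises, 5 falls and 2 genes that did not pass, of 14 (median 0.06). PGD, an NADPH source of the pentose phosphate pathway, rose by 0.87 (adjusted p = 4.14e-36), the acyl-CoA synthetases ACSL3 and ACSL4 rose by 0.64 and 0.31, and IDH1, another NADPH source, fell by 0.46. The other 12 genes for elongation and desaturation gave 5 rises and 6 falls, with 1 that did not pass (median -0.01). ELOVL1 rose by 0.79, ELOVL4 by 0.52 and the ketoacyl reductase HSD17B12 by 0.46, and the dehydratase HACD2 fell by 0.48. For glycerolipid synthesis, 6 of 14 rose, 7 fell and 1 did not pass (median -0.05). LPIN2, a relative of LPIN1, rose by 0.62 and the acyltransferase AGPAT5 by 0.48, whereas DGAT2, which completes triglycerides, fell by 1.49 (adjusted p = 1.34e-23) and GPAM, which starts them, by 0.29. MBTPS2, TMEM97, COQ2, ZMPSTE24 and LPIN2 overlap another annotated gene and are uncertain.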

How the data were processed

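RNA from 36 libraries was sequenced with paired ends on a NovaSeq instrument after TruSeq v2 preparation, which keeps no strand, per the labels' protocols. The tools named in the submitters' processing notes are StringTie 2.1.5, SAMtools 1.20 and HISAT2 2.2.1. Which of them made the table, the genome build and the annotation: not given in the sources used here. Whole-number read counts per gene, without normalisation, were deposited by the authors in 36 columns. From these counts, edgeR 4.0.16 (limma 3.58.1, R 4.3.3) kept 22488 genes with filterByExpr (minimum count 10, minimum total 15) and scaled them by TMM. Quasi-likelihood tests (two-sided) used 12 group means, or a cosine and a sine of 24 h period per medium, with Benjamini-Hochberg adjustment over all genes kept. The steps were tested on simulated data.

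Groups came from the sample labels. Overlapping genes were taken from a RefSeq table of ARS-UI_Ramb_v3.0, where all 34 genes matched by symbol; no coordinates are given. Promoter motifs were planned and not analysed here. The genes and lists were chosen with earlier results of these data known. Genes with full values were the 6 largest rises and 6 largest falls of the mean, the 4 smallest p of each time test and the regulators, and up to 4 of each further list; other values were added after being seen. Alternatives were DESeq2 1.42.0, its size factors, library totals, no low-count filter, a replicate block, single time points or media, a linear trend, a minimum of 1.2-fold and leaving out each library.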

Additional observations from a re-analysis of the deposited data

Results flagged for a closer look

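The effect of the medium differed between time points for 23 of the 34 lipid genes, by the joint test of the time contrasts (edgeR quasi-likelihood, adjusted p). Beside INSIG1 (5.82e-16), IDI1 (6.07e-11), MSMO1 (4.54e-10) and ELOVL5 (6.6e-09), these were FADS2 (6.26e-08), SREBF2 (6.67e-08), FASN (2.45e-07), FADS1 (1.19e-06), HSD17B7 (1.44e-06) and DHCR7 (2.77e-05). Larger adjusted p were those of SC5D (0.000107), FDPS (0.000174), ME1 (0.000566), SCD (0.000644), ACLY (0.000816), FDFT1 (0.00103), STARD4 (0.00251), ACACB (0.00491) and SCAP (0.00555). INSIG2 (0.0118), LPIN1 (0.0174), SREBF1 (0.0188) and PMVK (0.0401) came last.

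The 24 h component differed between the media for 11 genes by its own test: INSIG1 (0.000831), IDI1 (0.00306), FDPS (0.0144), SCAP (0.0162), SREBF1 (0.0198), ELOVL5 (0.0204), DHCR7 (0.028), MSMO1 (0.0306), FASN (0.0407), FADS2 (0.0434) and SC5D (0.044). No gene's value in a single library was tested for its gap to the others, since the groups hold 3 libraries, or 18 per medium. Whole libraries within a group were compared, as given above for Hay T16 replicate 3 and Grain T4 replicate 2.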

How the results depend on the processing

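Under alternatives other than leaving out a library, 2614 values of single genes were recomputed. Of these, 2445 kept their side of the threshold and, for values with a sign, their direction. A further 103 no longer passed, 42 newly passed and 24 turned. The joint tests over time points and of the 24 h component have no sign, so they could not turn. The contrasts of T12 with T8 and the scaling by library totals were chosen after seeing the data, and the cause of each change below was not tested. The number of lipid genes with a different 24 h component was 7 with DESeq2 size factors and 6 with no low-count filter. With a minimum of 1.2-fold, 6 lipid genes were lower in Grain on average, against 10 without that minimum. The share of all genes and the number of lipid genes higher under that minimum are not given here. The smaller count of lower genes can therefore not be set against the background or the rises. With library totals, T8 to T12 gave 10 higher and 13 lower genes in Grain, and 3 genes with a positive difference between the steps in Grain and Hay.

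Some directions that turned passed on the other side, all with library totals (edgeR quasi-likelihood). These were SCAP at T12 (adjusted p = 0.00273), HMGCS1 at T12 (adjusted p = 0.0204) and IDI1 from T8 to T12 in Grain (adjusted p = 0.0124). The other turned values given here did not pass. With DESeq2 size factors, DESeq2 and library totals in that order, INSIG2 had -0.02098, -0.02076 and -0.06114 at T4 and -0.0174, -0.01722 and -0.01476 at T8, and SCAP had -0.007464, -0.007572 and -0.1875 at T12. The step of HMGCS1 in Grain against Hay was 0.02202 and 0.02201 with DESeq2 size factors and DESeq2 and 0.01013 with no filter. With library totals, DHCR7 and SCAP had -0.01942 and -0.04278 on average, SCAP -0.07144 at T0, HMGCS1 -0.09227 at T12 and -0.006997 at T16, and IDI1 -0.01417 at T16. From T8 to T12 they gave FDFT1 -0.01162, IDI1 -0.09438, FDPS -0.05764 and SREBF1 -0.2709 in Grain, and HSD17B7 -0.06021 and ELOVL5 -0.05319 in Hay.

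Leaving out 1 library at a time moved the genes with a different 24 h component between 6 and 12. From T0 to T20 it moved all genes called in Grain between 1230 and 2178 (fewest without Grain T0 or Grain T20 replicate 1), the lipid genes higher in Grain between 3 and 7 and lower between 0 and 1, and all genes called in Hay between 416 and 923. In Hay the low counts came without T0 replicate 1 or 2 and T20 replicate 1 or 3. Across 18288 values recomputed in this way, 17 turned in direction. Those values include gene counts and joint tests, which have no direction to turn. Many others belong to genes picked for large effects or small p in these data. SCAP ran from -0.0315 to 0.06442 at T12, -0.05386 to 0.01414 at T16 and -0.05923 to 0.001651 at T20, INSIG2 from -0.001486 to 0.03557 at T4, and SREBF1 from -0.04191 to 0.04844 from T8 to T12 in Grain. The step in Grain against Hay ran from -0.03109 to 0.01574 for HMGCS1 and -0.1867 to 0.03185 for TM7SF2.

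The replicate numbers were also used as a block. Among 198 pairs of libraries with the same number in different groups, the correlation of deviations from the group means ran from -0.0416 to 0.0409 (median 0.00129). With 0 pairs over 0.1, no variation tied to the number was seen. A source shared by all libraries of a group would not show in these deviations. With the replicate block, 24 lipid genes depended on time and 10 had a different 24 h component. No count of genes moved by over 1.5 times.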
